A study of Mus musculus with 13 samples.

Results

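The vascular endothelial growth factor (VEGF) system was followed through mouse heart development by means of 8 genes, the 3 ligands Vegfa, Vegfb and Vegfc and the 5 receptors Kdr, Flt1, Flt4, Nrp1 and Nrp2. The genes were chosen by name, and all 8 were found by symbol among the 27998 genes of each of the 10 matrices analysed. The mice were wild-type C57Bl/6J at every stage, with no further allele and no agent, so that the labels set the groups apart by stage and by dissection. The study collected hearts of different stages in batches, and the P3 matrix, unlike the others, was filtered to called barcodes and carries another software version, so that stage and batch cannot be told apart. Whole hearts of embryonic days E12.5, E14.5 and E16.5 gave 2 libraries each, and P3 hearts, from postnatal day 3, gave 1 matrix that pools 2 records and was taken as 1 sample. Its barcodes carry 2 suffixes, which no label ties to a record, and the study's methods name P3 as the stage whose batches differed. The barcodes of both suffixes differed in depth, with median UMIs of 17626 in 5882 barcodes and 10378 in 4644, and in several members, and some P3 levels are given for each suffix. E8.5 (1 library) and E10.5 (2 libraries) were embryos from which head and limbs had been cut off, so that most of their cells came from outside the heart. Levels at E8.5, E10.5 and P3 are given as values and enter no test. The record titles give both libraries of a stage the same replicate number, and replicate 1 and replicate 2 below follow the library names. Neither labels nor methods tell if these libraries stem from separate animals, and the p-values below therefore measure the spread between libraries only.

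Each matrix holds counts of unique molecular identifiers (UMIs), which mark single captured transcripts, per gene and per droplet barcode. The 80741 barcodes with at least 2000 UMIs were kept, between 4928 and 14675 per matrix, with median UMIs between 10268 and 24516. Barcodes were put into classes by gate genes that are not among the 8. Cardiomyocyte-gated barcodes had at least 20 Tnnt2 UMIs per 10000, and fibroblast- or mesenchyme-gated barcodes at least 5 Col1a1 UMIs per 10000. Endothelial barcodes had at least 2 Cdh5 UMIs and 1 per 10000, and were split into those with more Npr3 than Fabp4 (the endocardial gate) and those with more Fabp4 than Npr3 (the vascular gate), each with at least 2 UMIs. The other Cdh5 barcodes entered no test. Their number was 263 and 322 in the E12.5 libraries, 38 and 50 in those of E16.5, and 17 in the P3 sample, and they held a mean of 19.1% of the Kdr and 26.6% of the Flt1 UMIs at E12.5 and 63.4% and 63.8% at E10.5. Epicardial-gated barcodes had at least 2 Upk3b UMIs and 1 per 10000, and macrophage-gated barcodes at least 5 C1qa UMIs per 10000. Barcodes that passed the gates of both Upk3b and Col1a1 were kept in the Upk3b class. Over all matrices 26059 barcodes fell in the Tnnt2 class, 1939 in the Cdh5 class with Npr3, 1089 in the Cdh5 class with Fabp4, 4323 in the Col1a1 class, 1135 in the Upk3b class and 357 in the C1qa class. The classes are ranges cut from counts, and 3097 of 26409 barcodes past the Tnnt2 cut and 1006 of 5031 past the Col1a1 cut lay within 1.5 times of it, while 772 of 5119 with at least 2 Cdh5 UMIs and 204 of 1270 with at least 2 Upk3b UMIs held exactly 2. Barcodes that passed several gates (382) were left out, no doublet caller was run, and 40046 barcodes passed no gate, most of them from the embryos. A level below is the number of UMIs of a gene per 1000000 UMIs of the class in 1 library (CPM).

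The classes were checked against markers that the gates did not use. In the Upk3b class 8 epicardial markers summed to 1122 to 4771 CPM and the mesenchyme markers to 1989 to 11528 CPM, both higher at E16.5 and P3 than at E12.5, and the part of the latter in the Upk3b results was not tested. The 8 macrophage markers summed to 7575 to 13581 CPM in the C1qa class. Of 7 pan-endothelial markers, all 7 were detected in both Cdh5 classes of every heart, with summed levels of 1334 to 3260 CPM with Fabp4 and 1620 to 3849 CPM with Npr3. The 4 vascular markers (Cd36, Cav1, Rgcc, Gpihbp1) summed to only 254 and 164 CPM in the Cdh5 class with Fabp4 at E12.5, against 2484 and 2362 CPM (E16.5), so that the E12.5 barcodes of this class, 20 and 25 per library, carried the vascular label weakly. The 7 cardiomyocyte markers summed to 281 to 679 CPM in that class and 385 to 593 CPM in the Cdh5 class with Npr3, against 11605 to 19804 CPM in the Tnnt2 class. The 7 mesenchyme markers summed to more at later stages in the Cdh5 class with Npr3, from 215 and 242 CPM (E12.5) to 486 and 361 CPM (E16.5) and 1083 CPM at P3, and stood at 21.3 to 272 CPM with Fabp4 and 2376 to 15950 CPM in the Col1a1 class. Their part in the differences and stage changes of the Npr3 class was not tested. Globin-rich erythroid barcodes, which should lack the 8 genes, gave their background from free RNA, at most 3.24 CPM for Vegfa, 10.96 for Vegfb, 0.769 for Vegfc, 2.03 for Kdr, 1.20 for Flt1, 0.428 for Flt4, 5.89 for Nrp1 and 2.35 for Nrp2. The gate gene Tnnt2 was itself part of the free RNA of the embryonic hearts. In barcodes with at most 100 UMIs it stood at 3069 and 2724 CPM (E12.5), 3766 and 3849 CPM (E14.5) and 5307 and 5649 CPM (E16.5). These levels lie above the Tnnt2 cut of 20 per 10000, and the part of free RNA in the Tnnt2 class was not tested. The 45 pairs of matrices shared 3889 kept barcodes, where 3892 were expected by chance from their numbers.

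VEGF ligands are secreted dimers that bind receptor tyrosine kinases on endothelial cells. VEGF-A, the product of Vegfa, is the main driver of vessel growth and acts through VEGFR2 (Kdr), while VEGFR1 (Flt1) binds VEGF-A, VEGF-B and placental growth factor and, in its soluble form, holds VEGF-A away from VEGFR2. VEGF-C acts mainly on VEGFR3 (Flt4), the receptor of lymphatic growth, and neuropilins (Nrp1 and Nrp2) are co-receptors without a kinase that also bind semaphorins. In the heart the myocardium is known as a source of VEGF-A, endocardium and coronary endothelium carry the receptors, and VEGF-C from epicardium takes part in coronary and lymphatic growth. On GRCm38 (GENCODE vM21) the ligand genes, with their strands, are Vegfa (chr17:46016993-46032369, minus), Vegfb (chr19:6982473-6987651, minus) and Vegfc (chr8:54077606-54187096, plus). The kinase receptor genes are Kdr (chr5:75932827-75978458, minus), Flt1 (chr5:147561604-147726011, minus) and Flt4 (chr11:49609263-49652739, plus), and the neuropilin genes Nrp1 (chr8:128358604-128503363, plus) and Nrp2 (chr1:62703285-62818695, plus). The libraries count transcript 3′ ends, so soluble and membrane forms of Flt1 and splice forms of Vegfa were counted together.

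The sequence just upstream of the transcription start is shown for the main ligand and for the 2 receptors with the largest log2 differences between the Cdh5 classes and the Tnnt2 and Col1a1 classes, because their letters can be read beside the expression data. They are taken from RefSeq (GRCm38.p6), 5′ to 3′ on the strand of the gene, with matches to the searched motifs in capitals on either strand, a match on the other strand appearing as its reverse complement. Vegfa lies on the minus strand (chr17:46032378-46032627), as do Kdr (chr5:75978459-75978705) and Flt1 (chr5:147726012-147726261).
Vegfa: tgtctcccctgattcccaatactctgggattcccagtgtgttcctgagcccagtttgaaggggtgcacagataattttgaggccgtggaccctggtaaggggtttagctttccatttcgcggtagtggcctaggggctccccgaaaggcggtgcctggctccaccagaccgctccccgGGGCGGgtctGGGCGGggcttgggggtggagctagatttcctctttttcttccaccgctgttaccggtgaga
Kdr: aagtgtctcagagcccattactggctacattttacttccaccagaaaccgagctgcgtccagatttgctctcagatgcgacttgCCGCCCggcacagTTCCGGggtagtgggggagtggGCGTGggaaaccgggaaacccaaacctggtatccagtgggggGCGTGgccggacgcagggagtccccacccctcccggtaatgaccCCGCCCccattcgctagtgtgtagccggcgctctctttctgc
Flt1: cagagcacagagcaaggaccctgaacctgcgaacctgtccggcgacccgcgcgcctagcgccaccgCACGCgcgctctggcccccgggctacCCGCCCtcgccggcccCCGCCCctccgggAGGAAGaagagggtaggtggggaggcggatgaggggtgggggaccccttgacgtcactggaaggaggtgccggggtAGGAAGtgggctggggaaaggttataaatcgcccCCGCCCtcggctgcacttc

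The core of the Sp1 motif, GGGCGG, was found in 1 to 5 copies in the windows of all 8 genes, of which those of Flt4 and Nrp1 lie inside the annotated genes and that of Nrp2 has 218 bases before the first exon, and in 32.74% of 32851 promoter windows of 250 bases. The hypoxia-response core was searched as ACGTG, which none of the 8 windows held and 16.57% of all windows did, and as GCGTG, which stood 2 times in Kdr, Vegfb and Nrp2 and once in Flt1 and Nrp1, against 28.16% of all windows with a match. The core of ETS factors was searched as AGGAAG, with 2 copies in Flt1 and 1 in Nrp1, and as CCGGAA, with 1 copy in Kdr, where 29.48% and 12.03% of all windows held a match. A match is a run of letters and not a binding site, and its absence says only that these letters are not in this window.

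**Figure D1:**
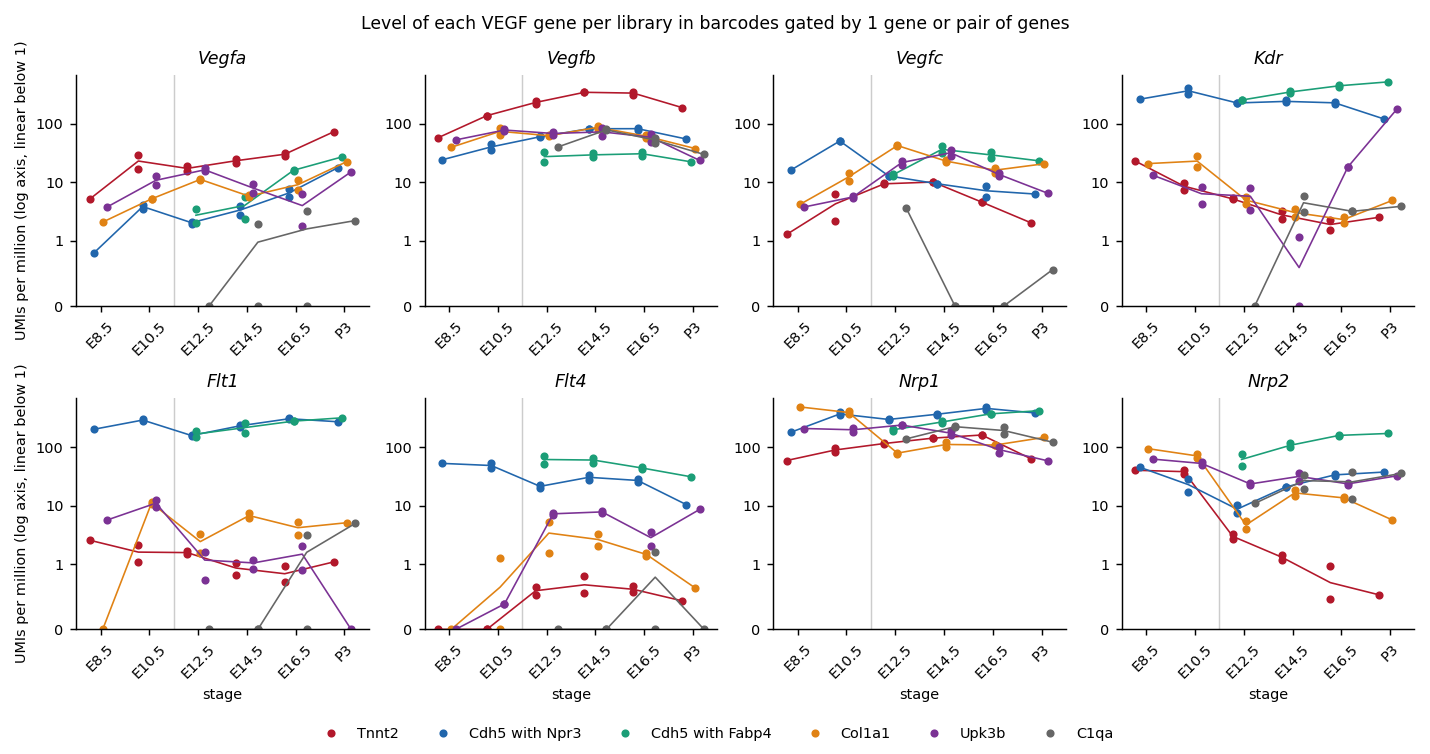
CPM of each of the 8 genes (log axis, linear below 1) in 6 classes of barcodes at 6 stages. Each point is 1 library, lines join the means of a stage, and the grey line parts embryos from hearts. Vegfb was highest in the Tnnt2 class of the hearts and Flt1 in the Cdh5 classes, as was Kdr up to E16.5, while at P3 Kdr of the Upk3b class (178) lay above that of the Cdh5 class with Npr3 (123) in the pooled matrix.

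Vegfa was highest in cardiomyocyte-gated barcodes from E12.5 on, and its level there rose with stage. In the Tnnt2 class it stood at 15.8 and 19.0 CPM in the E12.5 libraries, 21.4 and 25.7 CPM (E14.5), 28.7 and 32.1 CPM (E16.5) and 73.3 at P3, where it was 51.8 with suffix 1 and 129 with suffix 2. The ranges of the stages did not overlap, and the E16.5 level was 0.96 ± 0.09 (SE) higher on the log2 scale than the E12.5 level (adjusted p = 5.72e-08, quasi-likelihood test of edgeR, Benjamini-Hochberg adjusted across all genes, as is every adjusted p below). At E12.5 the Upk3b class, at 15.6 and 17.4 CPM, overlapped the Tnnt2 class, whereas at E16.5 it held 1.82 and 6.24 CPM. Col1a1 barcodes held between 5.59 and 11.5 CPM in the embryonic hearts. Averaged over the 3 embryonic heart stages Vegfa was 1.71 ± 0.10 higher in Tnnt2 than in Col1a1 barcodes on the log2 scale (adjusted p = 3.68e-18), and the mean of both Cdh5 classes against Tnnt2 gave -2.49 ± 0.11 (adjusted p = 9.92e-22). C1qa barcodes held 0 or 1 Vegfa UMI per embryonic heart library, and a count of 0 allowed up to 9.35 CPM in the second E14.5 library.

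Endothelial barcodes gained Vegfa transcripts with stage. In the Cdh5 class with Fabp4 the level was 3.51 and 2.00 CPM (E12.5), 2.40 and 5.71 CPM (E14.5), 16.3 and 16.03 CPM (E16.5) and 27.4 at P3 (20.4 and 35.4 by suffix). The E16.5 libraries lay above all earlier ones, with a log2 difference from E12.5 of 2.46 ± 0.54 (adjusted p = 4.23e-03), which passed 0.05 in all but 1 of the alternatives. Without the 5% of barcodes with the most UMIs the difference was 2.32 with an adjusted p of 0.0890 in the same test. In the Cdh5 class with Npr3 the level went from 2.13 and 1.98 CPM to 5.59 and 7.68 CPM, a log2 change of 1.48 ± 0.39 (adjusted p = 3.37e-03), and it reached 17.9 CPM at P3 (12.7 and 28.7 by suffix). At P3 Col1a1 barcodes also held more Vegfa than at E16.5, with 22.7 CPM (19.1 and 25.0 by suffix) or 2.48 times the E16.5 mean. In Upk3b barcodes the pooled P3 matrix gave 15.2 CPM, or 3.77 times the E16.5 mean. That value came from 6 UMIs with suffix 1 (22.9 CPM) and 1 UMI with suffix 2 (5.02 CPM). The value of suffix 2 lay within the E16.5 range of 1.82 to 6.24 CPM. The change from E12.5 to E16.5 with Npr3 was 1.27 with an adjusted p of 0.0779 when E16.5 replicate 2 was left out. Vegfa in erythroid barcodes of the same E16.5 libraries was 0.289 and 0.758 CPM, and 3.24 CPM at P3. The E12.5 level with Fabp4, from 20 and 25 barcodes, lay near this P3 value, the highest of erythroid barcodes, and that with Npr3 lay below it. The size of both log2 changes from E12.5 is therefore uncertain.

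Vegfb, a ligand of VEGFR1, was a cardiomyocyte transcript in these hearts at a far higher level than in the other classes. The Tnnt2 class held 219 and 248 CPM (E12.5), 350.2 and 346 CPM (E14.5), 316 and 358 CPM (E16.5) and 191 at P3. No other gated class exceeded 92.3 CPM in a heart library, so that the Tnnt2 class stood apart from all others at every heart stage. Against Col1a1 the log2 difference was 2.35 ± 0.06 (adjusted p = 4.50e-30), and the mean of both Cdh5 classes against Tnnt2 gave -2.80 ± 0.05 (adjusted p = 4.25e-34). From E12.5 to E16.5 the Tnnt2 level rose by 0.69 ± 0.08 (adjusted p = 5.30e-07). The P3 level was 0.565 times the E16.5 mean in the Tnnt2 class, 0.616 times with Col1a1, 0.402 with Upk3b and 0.569 with C1qa. In the Cdh5 classes it was 0.665 times with Npr3 and 0.729 times with Fabp4. The median share of mitochondrial UMIs at P3 was 22.1% in the Tnnt2 class, against 10.2% and 10.7% at E16.5. In the Col1a1 class it was 2.48% at P3, against 2.33% and 2.30%. The part of that share in these values was not tested.

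Vegfc, the ligand of VEGFR3, changed its leading class with stage. At E12.5 the Col1a1 class was highest, at 43.4 and 42.1 CPM, above Upk3b at 23.6 and 20.2 CPM and above both Cdh5 classes, which lay between 12.9 and 14.1 CPM. Without the 5% largest barcodes the mean with Fabp4 was 24.3 CPM, above the 23.0 CPM of Upk3b in the same setting and below Col1a1 at 43.0 CPM. At E14.5 the Cdh5 class with Fabp4 (41.6 and 32.1 CPM) and the Upk3b class (28.9 and 35.5 CPM) overlapped each other and lay above Col1a1 at 22.4 and 23.9 CPM. At E16.5 the Cdh5 class with Fabp4 led with 32.6 and 26.7 CPM. Vegfc fell from E12.5 to E16.5 in Col1a1 barcodes, with a log2 change of -1.19 ± 0.14 (adjusted p = 7.06e-07), in Tnnt2 barcodes with -0.88 ± 0.09 (adjusted p = 1.39e-07) and in Cdh5 barcodes with Npr3 with -1.06 ± 0.26 (adjusted p = 1.67e-03). The last call was lost without E16.5 replicate 1 (-0.72, adjusted p = 0.113) and with doubled gate cuts. In Cdh5 barcodes with Fabp4 it rose by 1.05 ± 0.30 (adjusted p = 0.0194), a call that was lost under 6 of 17 alternatives and was smallest, at 0.26, without the 5% largest barcodes. The Cdh5 class with Npr3 held 52.0 and 50.3 CPM in the E10.5 embryos, above each of its heart libraries, though halved gate cuts brought their mean from 51.1 to 30.7 CPM.

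**Figure D2:**
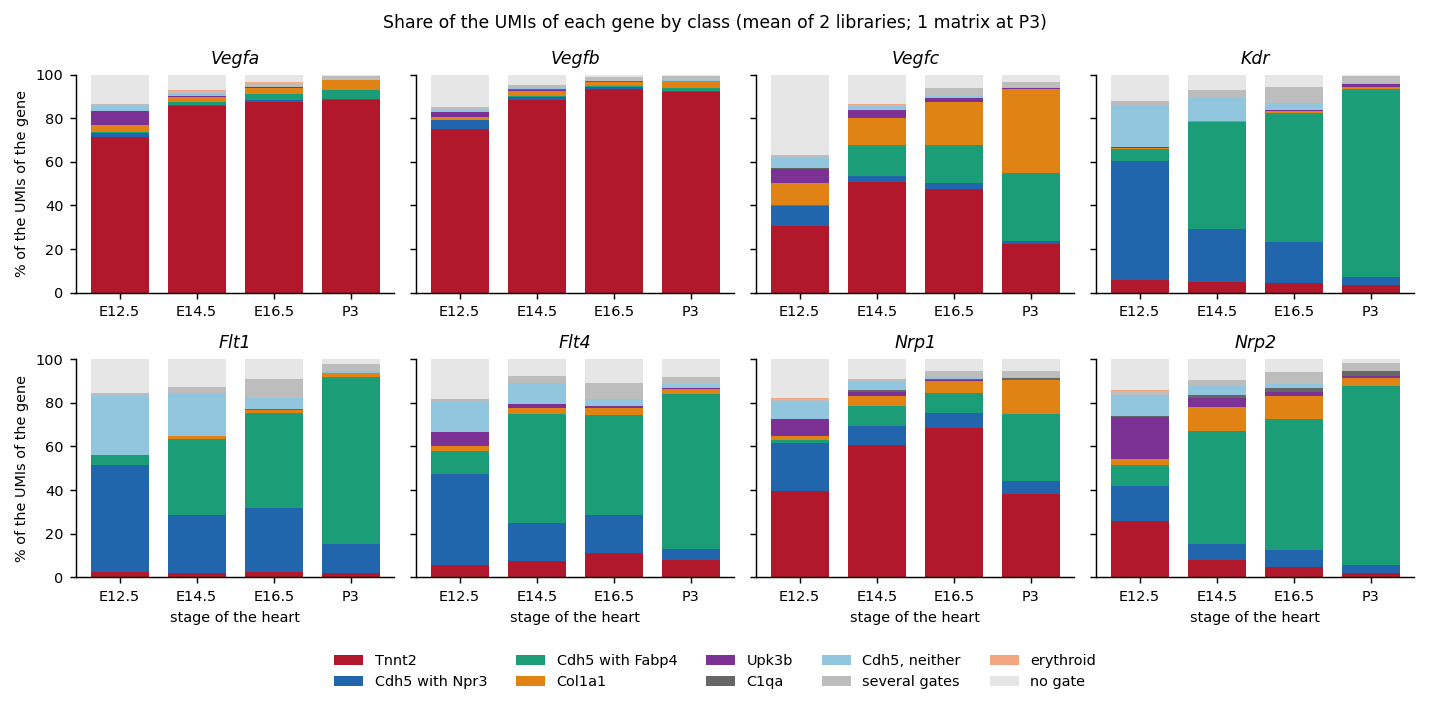
Percentage of the UMIs of each gene (vertical axis) that fell in each class of barcodes in hearts at 4 stages, as the mean of 2 libraries or, at P3, 1 matrix. The Tnnt2 class held 71.4% of the Vegfa UMIs at E12.5 and 88.2% at P3, and the Cdh5 class with Fabp4 went from 5.17% to 85.9% of the Kdr UMIs. Over these stages the Fabp4 class went from 0.379% and 0.358% to 3.92% of the kept barcodes, and its mean Kdr level from 256 to 524 CPM. The Tnnt2 class went from 45.7% and 44.5% to 66.5% of the kept barcodes.

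The source of the ligand UMIs follows from level and number of barcodes together. The Tnnt2 class held 71.4% of all Vegfa UMIs of the kept barcodes at E12.5, 87.6% at E16.5 and 88.2% at P3, and 74.9%, 93.3% and 91.8% of the Vegfb UMIs. Of the UMIs of all genes it held 69404239 of 104878049 and 49179637 of 73855855 in the E16.5 libraries. The mean E16.5 level of Vegfa was 30.4 CPM in this class and 23.0 CPM over all kept barcodes, and that of Vegfb 337 and 240 CPM. Vegfc was spread over classes, and at P3 38.8% of its UMIs lay in the Col1a1 class, 30.9% in the Cdh5 class with Fabp4 and 22.2% in the Tnnt2 class. These shares depend on how many cells of each kind the dissociation released, and in such shares fewer cells of a type and less RNA per cell cannot be told apart. Barcodes that passed no gate held 13.4% of the Vegfa UMIs and 36.8% of the Vegfc UMIs at E12.5, and in the E8.5 and E10.5 embryos 88.6% to 94.7% of the UMIs of each ligand did.

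Kdr marked the endothelial classes, and the difference between both of them grew with stage. In the Cdh5 class with Fabp4 it rose from 260.0 and 252 CPM (E12.5) through 339 and 365 CPM (E14.5) to 471 and 428 CPM (E16.5) and 524 at P3, where suffix 1 gave 439 and suffix 2 621. In the Cdh5 class with Npr3 it stayed between 218 and 252 CPM from E12.5 to E16.5 and was 123 CPM at P3 (113 and 141 by suffix). At each embryonic heart stage both libraries of the Fabp4 class lay above both of the Npr3 class. Its gain between E12.5 and E16.5 was 0.71 ± 0.13 on the log2 scale with Fabp4 (adjusted p = 9.57e-04), while the Npr3 class gave -0.15 ± 0.10 (adjusted p = 0.224), a value whose sign turned to 0.01 without TMM factors. In the Tnnt2, Col1a1 and C1qa classes Kdr was at most 5.89 CPM in any heart library, and the mean of both Cdh5 classes exceeded the Tnnt2 class by 6.44 ± 0.08 and the Col1a1 class by 6.55 ± 0.11 on the log2 scale. In the Tnnt2 class Kdr fell from 5.33 and 5.15 CPM (E12.5) to 1.57 and 2.26 CPM (E16.5), a log2 change of -1.32 ± 0.15 (adjusted p = 1.03e-06), and 7 endothelial markers in the same sums went from 28.3 and 27.0 to 14.8 and 14.9 CPM. In the E8.5 embryo library the Tnnt2 class held 23.3 CPM.

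Flt1, the receptor of VEGF-B, was not called between both endothelial classes. It stood at 157 and 161 CPM with Npr3 and 187 and 149 CPM with Fabp4 at E12.5, at 301 and 315 against 279 and 282 CPM (E16.5), and at 273 against 319.7 CPM at P3. The mean log2 difference of Npr3 against Fabp4 over 3 stages was -0.07 ± 0.07 (adjusted p = 0.475), and its sign differed between 5 of 17 alternatives and the rest, among them 0.06 without TMM factors. Within each class Flt1 rose from E12.5 to E16.5, by 0.79 ± 0.10 with Npr3 (adjusted p = 7.71e-07) and by 0.64 ± 0.18 with Fabp4 (adjusted p = 0.0152). The second call was lost without E12.5 replicate 2 (0.48, adjusted p = 0.0925), without either E16.5 replicate and without the 5% largest barcodes. Against the Tnnt2 class the mean of both Cdh5 classes was 7.55 ± 0.09 higher on the log2 scale, and every Tnnt2 heart library held under 1.69 CPM.

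Flt4, the receptor of VEGF-C, was higher with Fabp4 than with Npr3 in every heart library. The Fabp4 class held 52.7 and 71.1 CPM (E12.5), 54.9 and 66.4 CPM (E14.5), 46.6 and 42.0 CPM (E16.5) and 31.4 at P3, where the Npr3 class held 20.3 and 22.7, 27.8 and 33.6, 26.0 and 28.3, and 10.46 CPM. The classes did not overlap at any stage, and the mean log2 difference was -1.22 ± 0.10 for Npr3 against Fabp4 (adjusted p = 1.51e-12). Its change from E12.5 to E16.5 was 0.73 ± 0.26 (adjusted p = 0.112) and did not pass the threshold. Within the Fabp4 class Flt4 fell by 0.59 on the log2 scale (adjusted p = 0.0429), and 8 of 17 alternatives lost that call, with -0.34 without E12.5 replicate 2. Upk3b barcodes held 7.55 and 7.06 CPM (E12.5) and 3.64 and 2.08 CPM (E16.5), above Col1a1 barcodes by 1.25 ± 0.37 over the 3 stages (adjusted p = 6.22e-03), a call lost without E16.5 replicate 1 (1.08, adjusted p = 0.321) and with doubled gate cuts.

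Nrp1, the co-receptor of VEGFR2, was found in every class. At E16.5 it was highest with Npr3 (486 and 439.9 CPM), followed by Fabp4 (369 and 378), C1qa (169 and 219), Tnnt2 (161 and 164), Col1a1 (109 and 109) and Upk3b (101 and 81.1), and no neighbours in this order overlapped. The log2 difference of Npr3 against Fabp4 at that stage was 0.17 ± 0.10 (adjusted p = 0.213) and did not pass the threshold, and at P3 Nrp1 stood at 387 CPM with Npr3 and 423 CPM with Fabp4, with 294 and 299.8 CPM in barcodes of suffix 1 and 581 and 563 CPM in those of suffix 2. It rose from E12.5 to E16.5 with Fabp4 (0.80 ± 0.13, adjusted p = 4.04e-04), with Npr3 (0.46 ± 0.10, adjusted p = 4.80e-04), with Tnnt2 (0.64 ± 0.07, adjusted p = 2.36e-07) and with Col1a1 (0.67 ± 0.10, adjusted p = 2.43e-05). In Upk3b barcodes it went the other way, from 243 and 237 CPM (E12.5) to 101 and 81.1 CPM (E16.5) and 58.6 CPM at P3 (64.9 and 50.2 by suffix), with a log2 change of -1.34 ± 0.15 between the embryonic stages (adjusted p = 1.71e-06). The Tnnt2 class, with the most barcodes, held 68.5% of all Nrp1 UMIs at E16.5. Its mean Nrp1 level was 162 CPM, near the 157 CPM over all kept barcodes of that stage. Col1a1 barcodes of the embryos held 490.2 CPM at E8.5 and 413 and 374 CPM (E10.5), against 78.2 and 80.9 CPM in E12.5 hearts, though the embryo barcodes came from the whole trunk. These embryo values moved with the gate cuts, to 301 CPM (E8.5) and a mean of 187 CPM (E10.5) with halved cuts, and from a mean of 393 to 632 CPM (E10.5) with doubled cuts.

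Nrp2, the co-receptor of VEGFR3, was the gene that parted both endothelial classes most among the 8. The Fabp4 class held 76.1 and 48.1 CPM (E12.5), 117 and 100.01 CPM (E14.5), 161 and 158 CPM (E16.5) and 172 at P3 (127 and 224 by suffix). The Npr3 class held 7.41 and 10.1, 20.8 and 21.3, 35.1 and 32.5, and 37.7 CPM (26.0 and 62.1 by suffix), so that it lay below the Fabp4 class in every heart. The mean log2 difference of Npr3 against Fabp4 was -2.59 ± 0.12 (adjusted p = 5.81e-20). Both classes gained Nrp2 from E12.5 to E16.5, by 1.77 ± 0.18 with Npr3 (adjusted p = 6.45e-08) and by 1.28 ± 0.19 with Fabp4 (adjusted p = 2.29e-04), as did Col1a1 barcodes (1.68 ± 0.24, adjusted p = 1.22e-05). Upk3b barcodes held 22.6 to 36.7 CPM in the hearts, where the P3 value of 32.5 CPM was 13.7 CPM without the 5% largest barcodes and 7.64 and 65.3 CPM by suffix, and Tnnt2 barcodes fell from 2.75 and 3.26 to 0.461 and 0.976 CPM. In the embryos the Tnnt2 class held 40.5 CPM at E8.5 and 35.5 and 41.3 CPM (E10.5), and the E10.5 mean went from 38.4 to 74.3 CPM with doubled gate cuts.

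**Figure D3:**
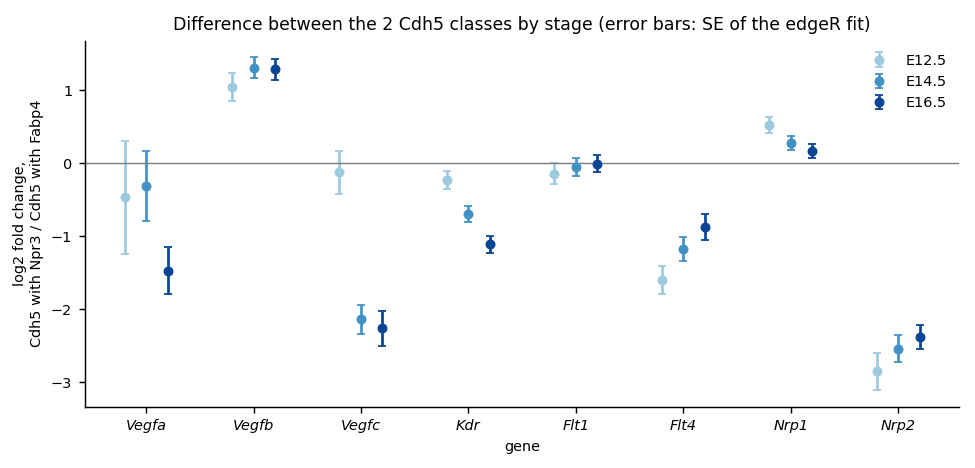
Log2 fold change of Cdh5 barcodes with Npr3 against those with Fabp4 for each of the 8 genes (horizontal axis) at E12.5, E14.5 and E16.5, with the standard error derived from the edgeR test. Kdr went from -0.23 at E12.5 to -1.11 at E16.5 and Vegfc from -0.13 to -2.26, while Nrp2 stayed between -2.85 and -2.38.

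The comparison of both endothelial classes asked which VEGF genes part endocardium-like from vascular endothelium-like barcodes. Over the 3 embryonic heart stages Vegfb and Nrp1 were higher with Npr3, Vegfc, Kdr, Flt4 and Nrp2 were higher with Fabp4, and Vegfa (-0.75 ± 0.35, adjusted p = 0.0757) and Flt1 did not pass the threshold. That is 6 of 8 genes called, where 44.7% of all 14065 genes tested were called (22.9% higher, 21.8% lower), and the median log2 difference of the 8 was -0.72 against 0.08 over all genes. For Vegfb the difference was 1.21 ± 0.09 (adjusted p = 4.38e-14), for Vegfc -1.51 ± 0.16 (adjusted p = 8.06e-10), for Kdr -0.68 ± 0.07 (adjusted p = 7.99e-11) and for Nrp1 0.32 ± 0.06 (adjusted p = 2.23e-05). These 6 calls kept their direction and their side of the threshold under all 17 alternatives, and Vegfa passed the threshold in DESeq2 (-0.74, adjusted p = 0.0296) and without E14.5 replicate 1 (-1.04, adjusted p = 0.0266). At single stages the same edgeR test gave Vegfa -0.47 ± 0.77 at E12.5 and -0.31 ± 0.48 at E14.5, which did not pass. At E16.5 it gave -1.48 ± 0.32 (adjusted p = 4.08e-04), so that Vegfa was higher with Fabp4 there. Barcodes with Fabp4 were deeper than those with Npr3 at every heart stage, with median UMIs of 37326 and 34561 against 19377 and 19850 at E12.5 and of 16206 and 13702 against 12063 and 10681 in the E16.5 libraries, and the part of depth in the differences was not tested.

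Of the 8 genes, Kdr and Vegfc changed their difference between both classes with stage, both downwards, where 4.88% of all genes did (1.74% upwards, 3.14% downwards). For Kdr the difference of Npr3 against Fabp4 was -0.23 ± 0.12 at E12.5, -0.70 ± 0.11 at E14.5 and -1.11 ± 0.11 at E16.5, a change of -0.88 ± 0.17 from E12.5 to E16.5 (adjusted p = 7.37e-04) that passed under all 17 alternatives. For Vegfc it was -0.13 ± 0.29, -2.14 ± 0.20 and -2.26 ± 0.24, a change of -2.13 ± 0.37 (adjusted p = 2.03e-04). Without E16.5 replicate 1 the change of Vegfc was -1.60 with an adjusted p of 0.0692. The difference in Nrp1 went from 0.52 ± 0.11 at E12.5 to 0.17 ± 0.10 at E16.5, a change of -0.35 ± 0.15 (adjusted p = 0.192) that passed the threshold in DESeq2 (-0.46, adjusted p = 5.14e-03) and in edgeR without a filter on low counts (-0.50, adjusted p = 0.0486). The summed vascular markers of the Fabp4 class rose from 254 and 164 CPM to 2484 and 2362 CPM over the same stages, and those of the Npr3 class from 64.7 and 71.9 CPM to 363 and 418 CPM, and the part of this shift in both changes was not tested.

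Against Tnnt2 and Col1a1 barcodes all 5 receptors were higher in the Cdh5 classes. All 8 genes were called between the mean of both Cdh5 classes and the Tnnt2 class, with the receptors and Vegfc (0.88 ± 0.10) higher in the Cdh5 classes and Vegfa and Vegfb lower, where 72% of all genes were called (31.8% higher, 40.2% lower). For Vegfc this average was mostly that of the Fabp4 class, at 3.62 and 6.42 times the Tnnt2 mean at E14.5 and E16.5, where the Npr3 class stood at 0.933 and 1.56 times. Against Col1a1 barcodes all 8 were called too, the 5 receptors higher and the 3 ligands lower, where 57.6% of all genes were called (25.9% higher, 31.7% lower). These are averages over both Cdh5 classes and 3 stages, and with Fabp4 alone the mean Vegfc level exceeded that of Col1a1 at E14.5 (36.8 against 23.2 CPM) and E16.5 (29.6 against 16.2 CPM), as did Vegfa at E16.5 (16.2 against 9.17 CPM). With Npr3 alone the mean Vegfb level exceeded that of Col1a1 at E16.5 (83.1 against 61.7 CPM), and at P3 it was 55.3 against 38.0 CPM. Vegfa gave -0.78 ± 0.18 in the average, and with doubled gate cuts the log2 fold change was -0.58 with an adjusted p of 0.0749. Between Tnnt2 and Col1a1 barcodes 7 of 8 genes were called against 75.4% of all genes (37.2% higher, 38.3% lower), with Vegfa, Vegfb and Nrp1 higher in Tnnt2 and Vegfc (-1.47 ± 0.07), Flt1, Flt4 and Nrp2 lower. At P3, outside the test, Nrp1 stood at 64.1 CPM in Tnnt2 barcodes (49.2 and 103 by suffix) and 147 CPM in Col1a1 barcodes, the reverse order. Kdr gave 0.12 ± 0.17 (adjusted p = 0.562), which turned to -0.13 without TMM factors.

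Epicardial-gated barcodes differed from Col1a1 barcodes in 4 of 8 genes, where 42.1% of all genes were called (20% higher, 22.1% lower). Nrp2 (1.39 ± 0.19), Nrp1 (0.73 ± 0.07) and Flt4 were higher and Flt1 (-1.81 ± 0.47) lower. The Flt1 call was lost when E12.5 replicate 2 was left out (-1.40) or gate cuts were doubled. Upk3b barcodes held 7 and 4 Flt1 UMIs in the E12.5 libraries and 1 in each library of E14.5 and E16.5. The fitted fold of Flt1 therefore has no stable size. For Nrp1 the order turned with stage, since Upk3b stood at 3.02 and 1.56 times the mean Col1a1 level at E12.5 and E14.5 but at 0.833 times at E16.5 and 0.397 times at P3 (against 117 and 167 CPM in Col1a1 barcodes by suffix). Vegfa (-0.11 ± 0.29, adjusted p = 0.828), Vegfb (-0.01, adjusted p = 0.952), Vegfc (-0.19 ± 0.13, adjusted p = 0.266) and Kdr (0.31 ± 0.61) did not pass the threshold. Macrophage-gated barcodes also differed from Col1a1 barcodes in 4 of 8 genes against 43.3% of all genes (16% higher, 27.4% lower). Nrp1 was higher there by 0.96 ± 0.11 (adjusted p = 9.93e-10), with 139 CPM at E12.5, 220.0 and 231 CPM (E14.5), 169 and 219 CPM (E16.5) and 122 at P3 (102 and 141 by suffix). At P3, outside the test, Col1a1 barcodes held 147 CPM (117 and 167 by suffix), so that the C1qa level lay below theirs. Vegfa, Vegfc and Flt1 were lower, from at most 1, 1 and 2 UMIs per library in the C1qa class of the embryonic hearts, so that their fitted folds have no stable size and are not given. The Flt1 call of this comparison was lost without E12.5 replicate 2, without E14.5 replicate 1, without E16.5 replicate 2 and with doubled gate cuts, with adjusted p-values up to 0.161 in edgeR. Nrp2 gave 1.06 ± 0.49 (adjusted p = 0.0800) and passed the threshold under 5 alternatives, among them DESeq2 (1.03, adjusted p = 7.21e-03) and the fit without E12.5 replicate 1 (0.997, adjusted p = 4.41e-03). Vegfb gave -0.25 ± 0.16 (adjusted p = 0.227) and passed with halved gate cuts (-0.44, adjusted p = 0.0220), and Kdr (adjusted p = 0.518) and Flt4 (adjusted p = 0.0862) did not pass.

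**Figure D4:**
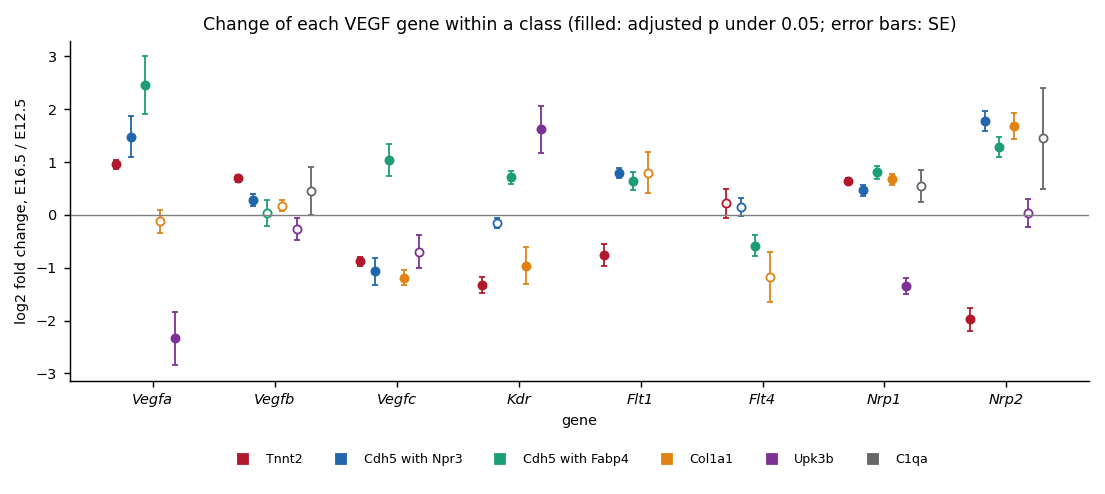
Log2 fold change from E12.5 to E16.5 of each gene (horizontal axis) within each class, with the standard error derived from the edgeR test. Filled points passed an adjusted p of 0.05 and open points did not. Vegfa rose in the Tnnt2 class and both Cdh5 classes and fell in the Upk3b class, and Nrp2 rose in both Cdh5 classes and in the Col1a1 class and fell in the Tnnt2 class.

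Between E12.5 and E16.5 the same gene often went different ways in different classes. In the Tnnt2 class 7 of 8 genes were called (3 higher, 4 lower) where 62.9% of all genes were (32% higher, 30.9% lower), and among the lower ones Nrp2 changed by -1.98 ± 0.23. Flt1 changed by -0.76 ± 0.21, a call lost without E16.5 replicate 1 (-0.57, adjusted p = 0.0648) and with doubled gate cuts. The levels of Flt1 and Nrp2 there lay near the highest erythroid values over all matrices, embryos included, of 1.20 CPM for Flt1 and 2.35 CPM for Nrp2. In barcodes with at most 100 UMIs of the same libraries Nrp2 stood at 1.89 and 2.97 CPM (E12.5) and 5.58 and 6.63 CPM (E16.5). The 7 endothelial markers went in the Tnnt2 sums from 28.3 and 27.0 to 14.8 and 14.9 CPM. The part of background or of endothelial transcripts in these changes was not tested. In the Cdh5 class with Npr3 5 genes rose and Vegfc fell, against 44.2% of all genes called (21.4% higher, 22.8% lower), and the rise of Vegfb (0.29 ± 0.11, adjusted p = 0.0441) was lost under 10 of 17 alternatives. In the Cdh5 class with Fabp4 6 genes rose and Flt4 fell, against 26% of all genes (12% higher, 14% lower). In the Col1a1 class Nrp1 and Nrp2 rose and Vegfc and Kdr fell, against 36% of all genes (19.3% higher, 16.7% lower). The fall of Kdr there (-0.96 ± 0.35, adjusted p = 0.0390) rested on 2.03 to 5.66 CPM and was lost under 7 of 16 alternatives, among them the replicate number as a block (-0.88, adjusted p = 0.0591). In the C1qa class none of the 3 genes tested was called, with 5.05% of all genes called (3.44% higher, 1.61% lower), and E12.5 entered there with 1 library of 15 barcodes.

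In the Upk3b class 3 of the 6 genes tested were called between the same stages, against 27.7% of all genes (14.8% higher, 12.9% lower). Vegfa fell, with a log2 change of -2.34 ± 0.50 (adjusted p = 1.69e-03), and without E16.5 replicate 1 the change was -1.39 and the call was lost. Its E16.5 levels, 1.82 and 6.24 CPM in 67 and 37 barcodes, lay around the highest erythroid value of 3.24 CPM, which is that of P3. They lay above the erythroid values of the E16.5 libraries given above. The Upk3b sums of these libraries held 1099924 and 480814 UMIs, so that the levels rest on few Vegfa UMIs. The size of this fall is therefore uncertain. Kdr rose by 1.62 ± 0.44 (adjusted p = 0.0101), from 3.43 and 8.21 CPM to 18.2 and 18.7 CPM, with 0 and 1.18 CPM (E14.5). With doubled gate cuts the mean E12.5 level was 9.98 instead of 5.82 CPM. The call was lost in DESeq2 (1.69, adjusted p = 0.0701) and without E12.5 replicate 1 or E16.5 replicate 1, and 17 of the 43 Kdr UMIs of E12.5 replicate 2 came from 1 barcode.

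At P3 the Upk3b class held 178 CPM of Kdr, more than in any other stage of that class and more than the 123 CPM of the Cdh5 class with Npr3 in the same sample. By suffix it held 241 CPM against 113 in that Cdh5 class, and 95.4 CPM against 141, so that the order of both classes differed between the suffixes while each of them exceeded the E16.5 libraries. The value came from 22 barcodes, of which 16 held Kdr, with 82 UMIs in all and at most 18 in 1 barcode. Suffix 1 had 9 of 12 barcodes with Kdr and 63 UMIs, and suffix 2 had 7 of 10 and 19 UMIs. None of the 22 held a UMI of Flt1, and 20 held none of Pecam1. Barcodes that also passed the Cdh5 gate had been left out of the class. Wt1, a transcription factor of epicardium, was found in 19 of them. At E16.5, 14 of 67 and 7 of 37 Upk3b barcodes held Kdr, and at E14.5 0 of 82 and 1 of 74 did. After thinning each barcode to 2000 UMIs, 5 of the 22 P3 barcodes still held Kdr (22.7%, 95% exact binomial interval 7.82 to 45.4%), against 2 of 239 erythroid barcodes (0.837%). P3 is 1 sample, and such intervals cover counting error only.

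Shares of barcodes with a transcript were compared after thinning each barcode to 2000 UMIs, since the classes differ in depth. With Fabp4, Kdr was found in 62.0% and 52.9% of barcodes at E16.5, and with Npr3 in 33.5% and 33.8%, where the unthinned shares were 94.6% and 94.2% against 80.6% and 75.9%. Both Kdr and Flt1 were found in 83.7% and 81.9% of the Fabp4 barcodes and 78.2% and 73.7% of the Npr3 barcodes before thinning. Flt1 without Kdr was found in 17.1% and 19.5% of the Npr3 barcodes and in 3.26% and 3.87% of the Fabp4 barcodes at E16.5, and after thinning in 31.2% and 31.6% against 10.3% and 21.3%. In erythroid barcodes thinned alike at most 0.837% held Kdr in any matrix, at median depths of 8781 to 31459 UMIs before thinning. In the Tnnt2 class Vegfa was found in 2.44% and 2.64% of thinned barcodes at E12.5, 6.20% and 6.28% at E16.5, and 15.6% in the P3 sample, and in 22.7% and 24.6%, 36.9% and 31.5%, and 63.0% without thinning.

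Lymphatic endothelium is known by Prox1 and Lyve1 together, and Flt4 and Nrp2 are known as its VEGF-C receptors. Here a barcode counted as holding a gene with 1 UMI or more, without thinning. Cdh5 barcodes with both genes numbered 28 and 12 at E16.5, where their Flt4 level was 102 and 144 CPM and their Nrp2 level 300.5 and 494 CPM. In the Tnnt2 class of the hearts 5 lymphatic markers, Prox1 and Lyve1 among them, summed to 53.5 to 73.6 CPM. The part of free RNA in the group with both genes was not tested. Cdh5 barcodes with neither gene held 32.5 and 29.4 CPM of Flt4 and 101.0 and 93.5 CPM of Nrp2 in the same libraries. The share of barcodes with Flt4 was 35.7% with both genes and 36.5% with neither in E16.5 replicate 1, and 83.3% and 29.0% in replicate 2. Vegfc in these libraries stood at 3.04 and 8.98 CPM with both genes and 27.0 and 24.4 CPM with neither. At P3 the 54 barcodes with both held 49.5 CPM of Flt4 and 138 CPM of Nrp2, and the 383 with neither held 27.0 and 166 CPM, with Flt4 in 33.3% and 44.4% of barcodes. At E12.5 the 15 and 17 barcodes with both genes held 13.8 and 27.6 CPM of Flt4 and 20.7 and 9.20 CPM of Nrp2, against 21.0 and 24.8 CPM and 12.4 and 10.96 CPM with neither, so that the E16.5 order was not found there. At E14.5 only 8 and 3 barcodes held both genes, and no test was run on these groups, which were made from the same UMIs.

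Other genes of the VEGF axis were read from a list of 22, of which 21 were in the files (Figf, the gene of VEGF-D, under that older symbol) and 20 were tested. Between both Cdh5 classes 7 were higher with Npr3 and 7 with Fabp4, where 22.9% and 21.8% of all genes were. The largest changes with Fabp4 were Apln, the apelin ligand of sprouting endothelium, at 42.2 to 116.5 CPM against 0 to 1.12 CPM with Npr3, and Esm1, a secreted proteoglycan of tip cells, at 7.48 to 49.2 against 0 to 2.13 CPM. The largest with Npr3 were Figf and Svep1, which were low in both classes, with 26 and 42 UMIs in all with Npr3 and 2 and 7 with Fabp4. Of 9 known targets of the hypoxia-inducible factors, to which Vegfa belongs as well, all 9 were lower with Npr3 than with Fabp4, where 21.8% of all genes were lower, with a median log2 difference of -1.32 against 0.08 over all genes. Adm, the vasodilator adrenomedullin, stood at 9.21 to 23.4 CPM with Fabp4 and 0 to 1.60 CPM with Npr3, and Ankrd37 differed by -3.69 ± 0.16, Egln3 by -1.996 ± 0.14 and Bnip3 by -1.62 ± 0.14.

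In the Tnnt2 class, where Vegfa rose from E12.5 to E16.5, 4 of the 9 hypoxia targets rose and 5 fell, where 32% of all genes rose and 30.9% fell, with a median of -0.19 against 0.01 over all genes. Egln3, an oxygen-sensing prolyl hydroxylase, rose by 2.71 ± 0.08 and Pdk1, which restrains entry of pyruvate into mitochondria, by 0.64 ± 0.07, as did Adm by 0.43 ± 0.10, while the glucose transporter gene Slc2a1 fell with -1.84 ± 0.07. Against Col1a1 barcodes 6 of the 9 were higher in Tnnt2 barcodes and 1 lower, where 75.4% of all genes were called and 37.2% were higher, among the higher ones Slc2a1 (2.88 ± 0.08), Pdk1 (2.70 ± 0.08), Bnip3 (1.86 ± 0.06) and Pgk1 (1.76 ± 0.08), each called by the test above. In Col1a1 barcodes 8 of 14 tested genes of the VEGF axis list rose from E12.5 to E16.5 and none fell, where 19.3% of all genes rose. Pgf, the gene of placental growth factor and another ligand of VEGFR1, rose by 2.84 ± 0.21 from E12.5 to E16.5 (adjusted p = 8.29e-10), with 3.95 to 36.3 CPM over the embryonic heart libraries. Svep1, a matrix protein of lymphatic development, rose by 3.29 ± 0.29 in the same class (adjusted p = 1.37e-08), as did Egln3 by 1.36 ± 0.17 and Epas1, a hypoxia-inducible factor, by 1.16 ± 0.42 (adjusted p = 0.0375). Of the 9 hypoxia targets 2 rose and 5 fell in Col1a1 barcodes, where 16.7% of all genes fell. Their median was -0.63 against 0.01 over all genes. Of the axis list 12 of 15 tested genes rose with Npr3 and 0 fell, where 21.4% of all genes rose. With Fabp4 6 of 17 rose and 1 fell, where 12% of all genes rose. Of the 9 hypoxia targets 1 rose and 2 fell with Fabp4, where 14% of all genes fell, with a median of -0.47 against 0.04 over all genes. With Npr3 2 of 8 tested rose and 1 fell, where 22.8% of all genes fell. The difference between both Cdh5 classes changed with stage upwards in 1 of the 9 and downwards in 0, where 1.74% and 3.14% of all genes did. The median of that change was 0.76 against -0.14 over all genes.

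In the pattern over 35 class sums of the embryonic hearts, the genes most like each member among 7581 with a mean of at least 10 CPM were found by Pearson's r of log2(CPM + 1). Flt1 was most like She (r = 0.99), Thsd1 and Bcl6b (both 0.98), and Kdr most like Arhgef15, Adgrf5 (both 0.97) and Thsd1 (0.96). Flt4 was nearest to Trp53i11 and 9430020K01Rik (both 0.94) and to Esam (0.93). Vegfb was nearest to Gbas, Golga4 and Npepps (0.92), Vegfa to Camk2g, Igf1r and Rbpms2 (0.83), and Vegfc to Rnf122, Fam101b and Sparc (0.91). Nrp2 was nearest to Stx2 (0.92), Rps24 (0.87) and Smco4 (0.86), and Nrp1 to Map4k2 (0.86), Prkch (0.85) and Il2rg (0.82). The sums of 1 library share its depth and free RNA and those of 1 class share its cells, so that these values are descriptions.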

How the data were processed

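Single cells were captured on the 10x platform from hearts (E12.5 to P3) and from trunks of younger embryos. The authors deposited raw UMI counts per gene and barcode for 10 matrices. The submitters' processing notes name Cell Ranger 2.1.1 and Seurat 3.1.1, whereas the matrix headers give software versions 3.0.0 and 3.1.0. The labels name trypsin and v2 chemistry and the study's methods collagenase II and v3 chemistry, and which applies could not be settled. The embryonic matrices list every possible barcode, so barcodes were filtered here at 2000 UMIs. A further E8.5 replicate is not analysed here, and the first E16.5 matrix is linked to 2 records.

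Counts were summed per class and library, leaving out sums of fewer than 10 barcodes. Classes were compared as the mean over E12.5, E14.5 and E16.5, and stages within a class, by edgeR 4.0.16 (quasi-likelihood test, TMM factors, filterByExpr, R 4.3.3) in 13 comparisons, Benjamini-Hochberg adjusted across the tested genes, with 0.05 as the threshold. Errors beside log2 fold changes are standard errors derived from that test, as the size of the log2 fold change over the square root of its F statistic. DESeq2 1.42.0 was an alternative. The scripts were tested on simulated data. CPM are UMIs per 1000000 UMIs of the sum, and 3 counts were taken as the limit that a count of 0 allows. The members and gene lists were chosen with earlier results of these data known. The rule for names covered the 8 members in every comparison, the 4 largest called changes of each list and the 3 genes nearest to each member. Lists are described for some comparisons, and members that were not called are named for some. The P3 matrix was also split by barcode suffix, a step chosen after seeing the data.

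Total UMIs per matrix ran from 67141166 to 259041468. Classes of 1 library share that library. Their deviations from the class means correlated with r from 0.07 to 0.39 at E12.5, from -0.08 to 0.14 at E14.5 and up to 0.19 at E16.5. Gate cuts, UMI minimum, mitochondrial ceilings, large barcodes, scaling, low counts, the block and each library were varied.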

Additional observations from a re-analysis of the deposited data

Results flagged for a closer look

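The difference in Kdr between Cdh5 barcodes with Npr3 and those with Fabp4 changed from E12.5 to E16.5 by -0.88 on the log2 scale, and that in Vegfc by -2.13. Both were picked out because the change of the difference itself passed the test across all genes, with adjusted p-values of 7.37e-04 and 2.03e-04 in edgeR. Kdr passed under all 17 alternatives, with values from -1.03 to -0.80, and Vegfc did not pass without E16.5 replicate 1 (-1.60). The Fabp4 class held 20 and 25 barcodes in the E12.5 libraries. Its mean Vegfc level there went from 13.5 to 24.3 CPM without the 5% largest barcodes.

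Kdr in Upk3b barcodes at P3, a stage that enters no test, stood at 178 CPM, above the 18.2 and 18.7 CPM of the same class at E16.5 and above the largest erythroid value of 2.03 CPM. It rests on 82 UMIs in 22 barcodes of 1 sample. Barcodes of the 2 suffixes in that matrix gave 241 CPM (63 UMIs in 12 barcodes) and 95.4 CPM (19 UMIs in 10 barcodes), and no label ties a suffix to a record.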

How the results depend on the processing

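Of 1640 member values under the alternatives, 1537 kept direction and side of the threshold, 55 lost a call, 14 gained one and 34 changed sign, and no called member changed sign. Of 1264 levels under the alternatives 256 moved by more than the SD between libraries or, for 1 library, out of the counting interval, and 345 of 424 shares of barcodes with a UMI lay outside that interval when not thinned. The replicate block, with the library number as block, ended 1 member call, that of Kdr between stages in Col1a1 barcodes, and moved 1 count, to 370 genes for the C1qa stages. The stage numbers paired only the Tnnt2 sums (r from 0.11 to 0.17). Causes were not tested.

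The gene count for the change with stage between the Cdh5 classes was 686, and it was 1157 in DESeq2, 1040 without a filter, 267 without the 5% largest barcodes and 216 to 683 with 1 library left out, lowest without E16.5 replicate 1. For the stages with Npr3 it was 4548 and 2851 in DESeq2 (2976 to 4597 with 1 library left out). With Fabp4 it was 2595 and 1155 without the 5% largest barcodes (1724 to 2468). For Col1a1 it was 4220, 2514 in DESeq2 and 1815 with doubled cuts. For Upk3b it was 2309 and 1257 in DESeq2 (1029 to 2443). For C1qa it was 223, 92 in DESeq2, 356 without a filter, 344 at 5000 UMIs, 84 with doubled cuts, 223 to 435 with 1 library left out, and 0 in edgeR with only the groups compared (644 at an unadjusted p under 0.05).

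Members that were not called changed sign as follows, with the range over fits without 1 library where that range crosses 0. Flt1 between the Cdh5 classes was 0.059 without TMM factors, 0.026 with the study's mitochondrial ceilings and 0.033 without the 5% largest barcodes (-0.16 to 0.071 with 1 library left out). Kdr of Tnnt2 against Col1a1 was -0.13 without TMM factors and -0.23 with doubled cuts. For Upk3b against Col1a1, Vegfa was 0.049 with halved cuts (-0.30 to 0.12), Vegfb 0.081 with doubled cuts and 0.017 without the 5% largest (-0.077 to 0.055), and Kdr -1.45 to 0.60. Kdr of C1qa against Col1a1 ran from -2.68 to 0.73. For the change with stage between the Cdh5 classes, Vegfb was -0.25 with doubled cuts (-0.19 to 0.46), Flt1 -0.017 without a filter (-0.050 to 0.19) and Nrp2 -0.065 to 0.92. Between stages, Kdr with Npr3 was 0.012 without TMM factors and Vegfb with Fabp4 -0.033 without the 5% largest (-0.20 to 0.37). In Col1a1 barcodes Vegfa was 0.25 with halved and 0.15 with doubled cuts (-0.34 to 0.12), Vegfb -0.045 without TMM factors and Flt4 -1.60 to 0.13. In Upk3b barcodes Nrp2 was -0.042 without a filter and -0.0032 with doubled cuts (-0.057 to 0.077), and in C1qa barcodes Vegfb was -0.032 with halved cuts.

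Without TMM factors the share of higher genes among those called went from 51.3% to 63.6% between the Cdh5 classes, from 44.9% to 33.8% for Cdh5 against Col1a1, from 49.3% to 37.4% for Tnnt2 against Col1a1, from 35.7% to 46.0% for the change with stage (25.1% in DESeq2), and between stages from 50.8% to 34.2% in Tnnt2, 48.4% to 64.6% with Npr3, 53.6% to 29.0% in Col1a1 and 68.2% to 55.2% in C1qa. In Upk3b it was 53.5%, and 63.9% in DESeq2. Between stages with Fabp4 it was 46.0%, with 55.9% without TMM factors and 38.2% in DESeq2. Levels at E8.5 and E10.5 moved most with the gate cuts, as did Vegfa of Tnnt2 barcodes at E10.5, from 23.3 to 5.72 CPM with doubled cuts. Vegfc with Fabp4 at E12.5 was 24.3 instead of 13.5 CPM without the 5% largest barcodes.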
